A study of Homo sapiens with 6 samples.

Results

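The 10 genes VIM, CDH11, THBS1, COL1A1, FN1, SPARC, TCF4, CTSZ, CEMIP and PHLDB2 were followed across 3 pools of HT-29 xenograft RNA, as 10 of 19775 genes with a probe set on the array. Most are genes of mesenchymal cells, of the extracellular matrix or of its turnover, while CTSZ encodes a lysosomal protease and PHLDB2 a protein that anchors microtubules. They were chosen as a group because several of them stood apart in both tumours of treated animals or on the opposite side alone. The values that chose them are therefore given below as a description, with no test. All probe sets annotated with 1 of these symbols were taken, which gave 44 probe sets, each naming 1 gene.

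HT-29 is an established human colorectal adenocarcinoma line. Balb/c (nu/nu) mice aged 6 to 8 weeks received the cells in the left and right femoral region, and this athymic host provides the stroma and vessels of the graft. The control pool came from HT-29 tumours of control animals, the treated pool from tumours heated for 30 min by an electromagnetic field 18 days after injection and sampled 4 h later, and the opposite pool from the unheated tumours on the other side of the heated animals. Tumour areas were dissected from frozen sections, and the RNA of each group was 1 pool on 2 arrays that the labels call technical replicates. Each SD of a pool below is thus that of 2 arrays. The SD of a difference is the root of the summed squares of the SDs of its 2 pools. No comparison has a replicate check between animals. How many tumours entered a pool, and whether control animals were sham treated, is not given in the sources used here.

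Vimentin, cadherin-11, fibronectin, type I collagen, SPARC and thrombospondin-1 are products of fibroblasts and other mesenchymal cells, and carcinoma cells can make some of them when epithelial traits loosen. In a xenograft, human tumour cells and mouse stromal cells share the section, and RNA from both is labelled together. In bulk RNA, fewer cells of a type and less RNA per cell cannot be told apart.

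Values are GCRMA values on the log2 scale, and a level at or above 5 is called detected. To be called higher or lower, a probe set needed a gap of at least 1 between pool means (2-fold), the same sign in each of the 4 pairs of arrays, and a value of 5 or more on both arrays of the upper pool. Folds over a pool that was below 5 are lower bounds, computed with 5 in its place. HSPA6, an inducible heat shock chaperone that served to check the labels, stood at 8.69 and 8.73 on the treated arrays, 4.88 and 4.82 on the control arrays and 5.72 and 5.91 on the opposite arrays. The median absolute difference between the arrays of a pool was 0.048 to 0.057 over its detected probe sets.

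Of the 44 probe sets 9 were detected in any pool (20.5%, against 23.7% of all 54613 probe sets other than array controls), 1 for each gene except SPARC. The other 35 lay below 5 in every pool, and 8 of these were at the lowest value of the table, 2.37, on all 6 arrays. Every value described for a gene thus rests on 1 detected probe set. Among the 5079 genes of the array with 2 or more probe sets and a detected one, 51.6% likewise had exactly 1 detected. Of the 9 detected, 6 carry the ending _s_at and 2 the ending _x_at, which mark probe sets whose probes match several transcripts or further sequences, a share of 8 in 9 against 44.5% of all detected probe sets.

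**Figure D1:**
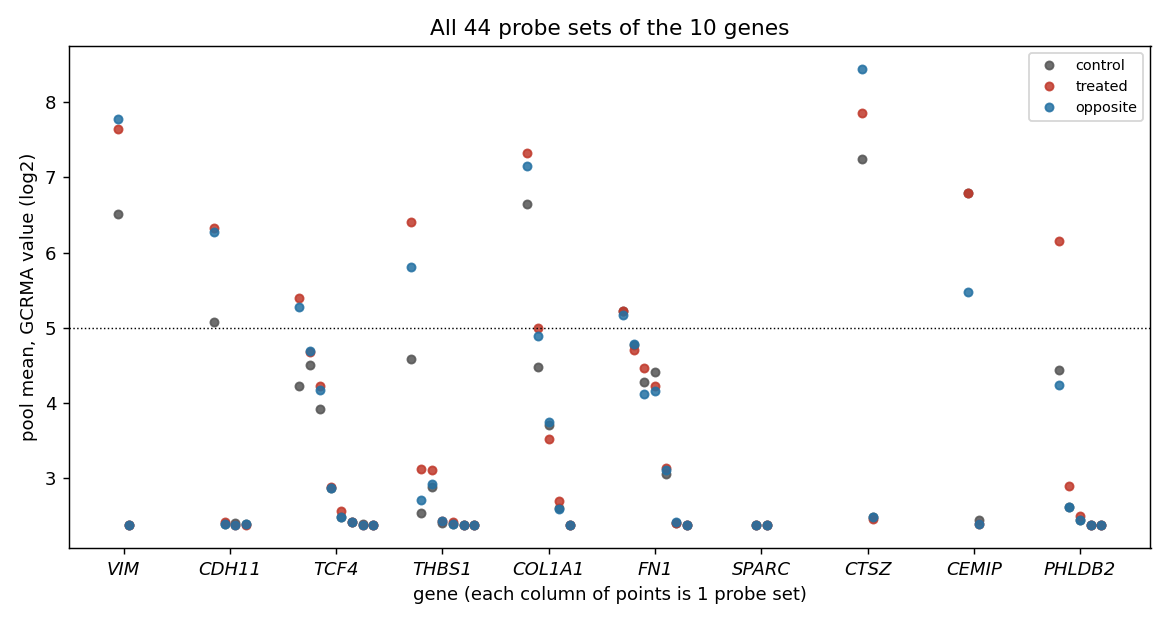
Pool means (log2 GCRMA value, vertical axis) of all 44 probe sets of the 10 genes, with 1 column of points for each probe set and colours for the control, treated and opposite pools; the dotted line is the detection level of 5. Each gene except SPARC has 1 probe set above the line, and 25 of the 44 probe sets stay below 3 in every pool.

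Against the control pool, 5 of the 9 probe sets detected in that comparison were higher in the treated pool (VIM, CDH11, THBS1, TCF4 and PHLDB2) and 0 were lower, where 0.775% of all tested probe sets were called higher and 0.235% lower. The genes were chosen from these values, so nothing is read from the contrast with that background. In the opposite pool 5 of 8 were higher than control (VIM, CDH11, THBS1, TCF4 and CTSZ), beside 0.322% of all tested probe sets, and CEMIP was lower, beside 0.267%. Between the tumours of the same animals, CEMIP and PHLDB2 were higher in the treated than in the opposite pool, beside 0.348% of all tested probe sets, and 0 of 9 were lower, beside 0.103%. The first 2 comparisons share the control arrays, so their values are set side by side without a measure of likeness.

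**Figure D2:**
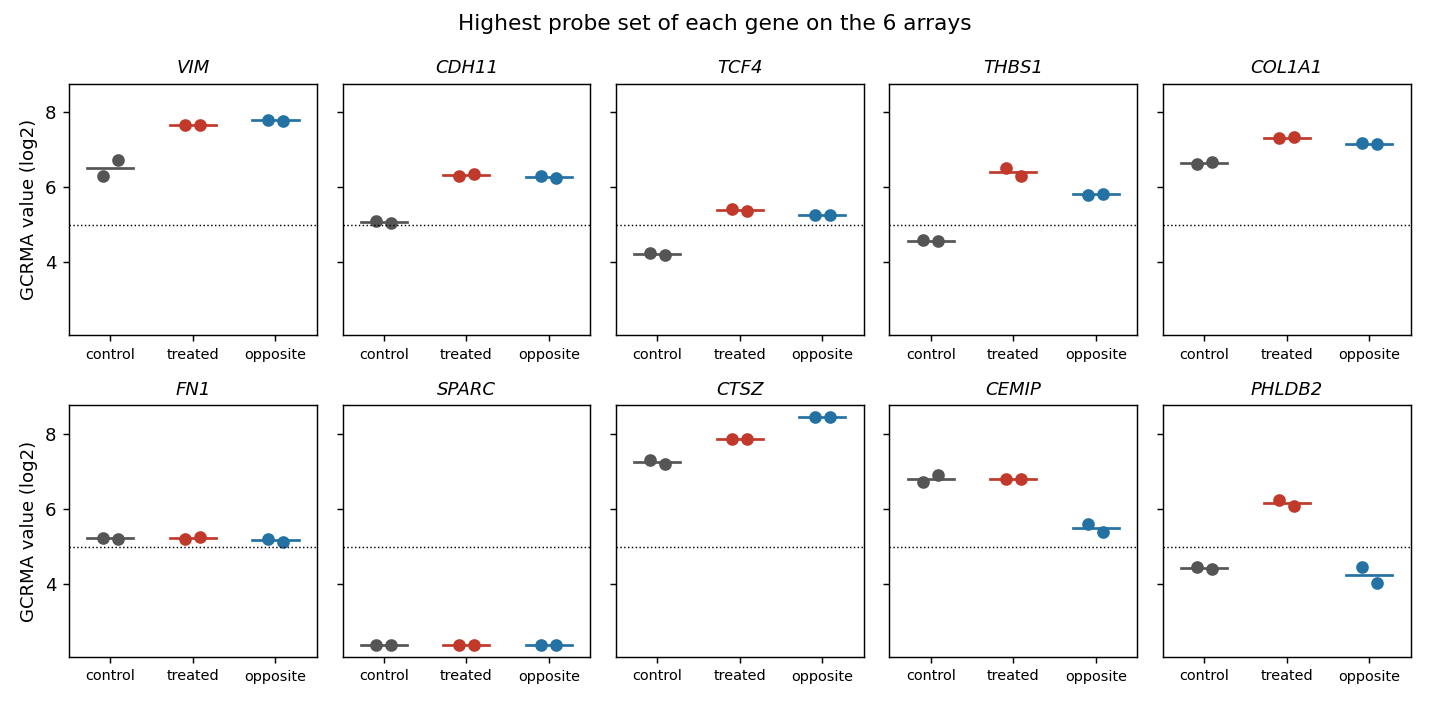
Values of the highest probe set of each gene (log2 GCRMA, vertical axis) on the 2 arrays of the control, treated and opposite pools; points are arrays, bars are pool means and the dotted line is the detection level of 5. VIM, CDH11, TCF4, THBS1, COL1A1 and CTSZ stand above control on all 4 arrays of the treated animals, CEMIP is low on the opposite arrays alone and PHLDB2 is high on the treated arrays alone.

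VIM encodes vimentin, the intermediate filament protein of mesenchymal cells. It stood at 6.31 and 6.72 on the control arrays, 7.65 on each of the treated arrays, and 7.78 and 7.77 on the opposite arrays. The 4 arrays of the treated animals lay above both control arrays, and the groups did not overlap. Such separation was common: of all tested genes, 34.7% lay above control without overlap in the treated pool and 34.0% on the opposite side. A further 40.5% and 42.4% lay below control without overlap. These shares stand beside each statement of no overlap with control below. The treated pool was 2.20-fold above control (difference 1.14 ± 0.29, SD from 2 arrays a pool) and the opposite pool 2.40-fold (1.26 ± 0.29). The VIM differences ranked 68th from the top of 12782 tested probe sets and 14th of 12740. The 2 control arrays differed from each other by 0.413 for VIM, a gap reached by 36 of the 12391 probe sets detected in that pool. Without the first control array the treated difference was 0.93, below the minimum, and without the second it was 1.34. The second VIM probe set stood at 2.37 on every array.

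CDH11 encodes cadherin-11, an adhesion molecule of mesenchymal cells and osteoblasts. It was at 5.11 and 5.06 on the control arrays, 6.30 and 6.36 on the treated arrays and 6.31 and 6.26 on the opposite arrays. Tumours of the treated animals were thus high on both sides and overlapped each other. The pool differed from control by 1.24 ± 0.056 in the treated tumours (2.37-fold) and by 1.20 ± 0.051 on the opposite side (2.29-fold). The other 3 CDH11 probe sets were at or below 2.43 on every array, and the best of them that carries neither ending differed by -0.02 in both comparisons. The detected probe set is of the _x_at kind, and which transcripts gave its signal was not tested.

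TCF4 encodes an E protein, a basic helix-loop-helix factor that binds E-boxes and acts in mesenchymal, neural and dendritic cells. This gene is distinct from TCF7L2, the Wnt pathway factor that shares the alias. It lay below the detection level in control tumours, at 4.25 and 4.20, and above it in the treated tumours, at 5.42 and 5.38, and on the opposite side, at 5.27 on both arrays. The groups did not overlap. The differences from control were 1.17 ± 0.043 and 1.05 ± 0.033, which is at least 1.32-fold and at least 1.21-fold when taken against 5. Both calls rest on a control level below detection, and both ended with values below 5 set to 5 (0.40 and 0.27) and with a detection level of 6. Its probe set is the only detected one of the 10 genes with neither ending. A pair of further TCF4 probe sets lay between 3.90 and 4.76, below detection, and differed from control by 0.18 and 0.31 in the treated pool and by 0.19 and 0.25 on the opposite side. The remaining 5 probe sets were below 3 on every array.

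THBS1 encodes thrombospondin-1, a matricellular glycoprotein that limits angiogenesis and activates latent TGF-beta. It stood at 4.59 and 4.58 on the control arrays, 6.50 and 6.31 on the treated arrays and 5.80 and 5.83 on the opposite arrays. The 3 pools did not overlap, and the opposite pool lay between the others. The treated pool was at least 2.64-fold above control and the opposite pool at least 1.76-fold. The measured differences were 1.82 ± 0.14 and 1.23 ± 0.024, but they run from a control level below detection. With values below 5 set to 5 the call held in the treated pool (1.40) and ended on the opposite side (0.81), as it did there with a detection level of 6. Between the sides the difference was 0.59 ± 0.14, which passed a smaller 1.5-fold rule (3 of 9 probe sets higher, beside 2.28% of all tested) and not the 2-fold one. It fell short of the smaller rule with arrays set to the same median (0.56) and with quantile normalization (0.57). Both spike-in scalings described below also left it short, at 0.40 and 0.27. The next THBS1 probe sets, at 2.53 to 3.36, differed from control by 0.59 and 0.23 in the treated pool and by 0.18 and 0.04 on the opposite side. The remaining 4 THBS1 probe sets were below 3 in every pool.

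The promoters of VIM and THBS1 are shown because both genes were higher in the tumours of treated animals on either side. Promoter sequences were taken from RefSeq on the GRCh38.p14 build, from 250 bases before to 50 bases after the annotated start, and 8 of the 10 genes matched, with 20 starts in all. Each is written 5′ to 3′ on the gene's strand, with capitals for matches to any motif searched. VIM lies at chr10:17227991-17228290 on the plus strand and THBS1 at chr15:39580829-39581128 on the plus strand.
VIM: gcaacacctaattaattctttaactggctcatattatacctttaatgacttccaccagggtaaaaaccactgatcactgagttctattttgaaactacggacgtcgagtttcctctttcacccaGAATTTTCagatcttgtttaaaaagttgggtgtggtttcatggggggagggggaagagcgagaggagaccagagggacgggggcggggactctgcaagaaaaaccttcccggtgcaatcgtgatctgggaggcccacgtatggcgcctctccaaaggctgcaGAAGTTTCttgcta
THBS1: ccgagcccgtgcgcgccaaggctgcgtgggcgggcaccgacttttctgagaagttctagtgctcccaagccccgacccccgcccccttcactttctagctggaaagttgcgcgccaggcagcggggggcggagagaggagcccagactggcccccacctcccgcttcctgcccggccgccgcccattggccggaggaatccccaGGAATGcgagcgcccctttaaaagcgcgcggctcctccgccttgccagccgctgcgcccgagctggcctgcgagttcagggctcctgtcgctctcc

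Both strands were searched for TGANTCA (AP-1), GGAATG (TEAD), CACCTG (the E-box bound by ZEB and Snail), CAGNTG (an E-box of E proteins, whose matches include all those of CACCTG) and GAANNTTC (inverted units of the heat shock element). The VIM window held 2 matches to GAANNTTC, a motif found in 6.77% of the 35116 promoters of that length in the table, and CEMIP had 1. The THBS1 window held 1 match to GGAATG, found in 14.0% of all promoters and also in windows of SPARC and TCF4. TGANTCA was found in a window of TCF4 (7.71% of all promoters), CACCTG in windows of CTSZ and PHLDB2 (20.6%), and CAGNTG in windows of CTSZ, PHLDB2, SPARC and TCF4 (49.9%). TCF4 and PHLDB2 have several annotated starts, 10 and 4, and thus more chances of a match. FN1 had no match. These are letter matches and nothing was measured at them.

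COL1A1 encodes the alpha 1 chain of type I collagen, the main fibrillar collagen of stroma. It was at 6.62 and 6.68 on the control arrays, 7.31 and 7.33 on the treated arrays and 7.16 and 7.14 on the opposite arrays. All 4 arrays of the treated animals were above control without overlap, but neither difference reached 2-fold: 0.67 ± 0.044 in the treated pool (1.59-fold) and 0.50 ± 0.043 on the opposite side (1.42-fold). The shares of all tested genes above control without overlap, given earlier, were 34.7% in the treated pool and 34.0% on the opposite side. With the 1.5-fold rule, COL1A1 and CTSZ joined the genes higher in the treated pool, for 7 of 9 probe sets beside 2.89% of all tested, with 0 lower beside 2.3%. With the spike-in scaling added after seeing the data, described below, both fell short of that rule (0.55 and 0.49). On the opposite side that rule gave the same counts as the 2-fold one, 5 higher and 1 lower, beside 1.66% and 2.81%. A second COL1A1 probe set, of which 1 treated array alone reached 5, differed by 0.51 and 0.41, and another, at 3.51 to 3.76, by -0.19 and 0.03. The remaining 2 COL1A1 probe sets were below 3 in every pool.

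FN1 encodes fibronectin, an adhesive matrix glycoprotein that binds integrins. Its detected probe set was at 5.23 and 5.21 on the control arrays, 5.21 and 5.25 on the treated arrays and 5.21 and 5.14 on the opposite arrays. The pools overlapped or met, and the differences were 0.01 ± 0.033 for treated and -0.05 ± 0.054 for opposite against control. Among the 6 undetected FN1 probe sets the differences from control ran from -0.19 to 0.18 in the treated pool and from -0.25 to 0.05 on the opposite side. SPARC, also called osteonectin, a collagen-binding protein made in quantity by fibroblasts and endothelium, read 2.37, the lowest value anywhere, with both of its probe sets on all 6 arrays. No difference could be read for it.

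CTSZ encodes cathepsin Z, a lysosomal cysteine carboxypeptidase that can also be secreted and bind integrins. It was at 7.30 and 7.18 on the control arrays, 7.85 and 7.86 on the treated arrays and 8.44 and 8.45 on the opposite arrays. The 3 pools did not overlap, with the unheated side of the treated animals highest. The opposite pool was 2.30-fold above control (1.20 ± 0.082, rank 17 of 12740), and the treated pool was 1.53-fold above it (0.62 ± 0.082). The treated pool was lower than the opposite pool by the 1.5-fold rule, with a difference of -0.59 ± 0.0057, beside 1.5% of all tested probe sets called lower. With quantile normalization that difference was -0.582, just short of the rule, and with the other scalings it was larger in size. The second CTSZ probe set was at or below 2.48 on every array.

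CEMIP encodes a hyaluronan-binding protein needed for the breakdown of hyaluronan, the large glycosaminoglycan of soft matrix. It stood at 6.71 and 6.89 on the control arrays, 6.79 and 6.81 on the treated arrays and 5.59 and 5.38 on the opposite arrays. Control and treated arrays overlapped, and both opposite arrays lay below all of them. The opposite pool was lower than control by 2.49-fold (-1.32 ± 0.20), with 3 of 12740 tested probe sets below it, and lower than the treated pool by 2.49-fold (1.31 ± 0.15 in the treated minus opposite direction), while treated and control means differed by -0.0030. The second CEMIP probe set lay between 2.40 and 2.50 on all arrays.

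PHLDB2 encodes LL5-beta, a phosphoinositide-binding protein that anchors microtubule ends at the cell cortex near focal adhesions. It was below detection in control tumours, at 4.47 and 4.41, and on the opposite side, at 4.45 and 4.04, and stood at 6.24 and 6.08 on the treated arrays. The treated arrays were above all others, whereas control and opposite arrays overlapped. The treated pool was at least 2.23-fold above each of the other pools, with differences of 1.72 ± 0.12 from control and 1.92 ± 0.31 from the opposite side that run from levels below detection. With values below 5 set to 5 both calls held (1.16). The next PHLDB2 probe set, at 2.62 to 2.93, differed from control by 0.27 in the treated pool and by -0.0020 on the opposite side, and the other 3 were at or below 2.54.

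**Figure D3:**
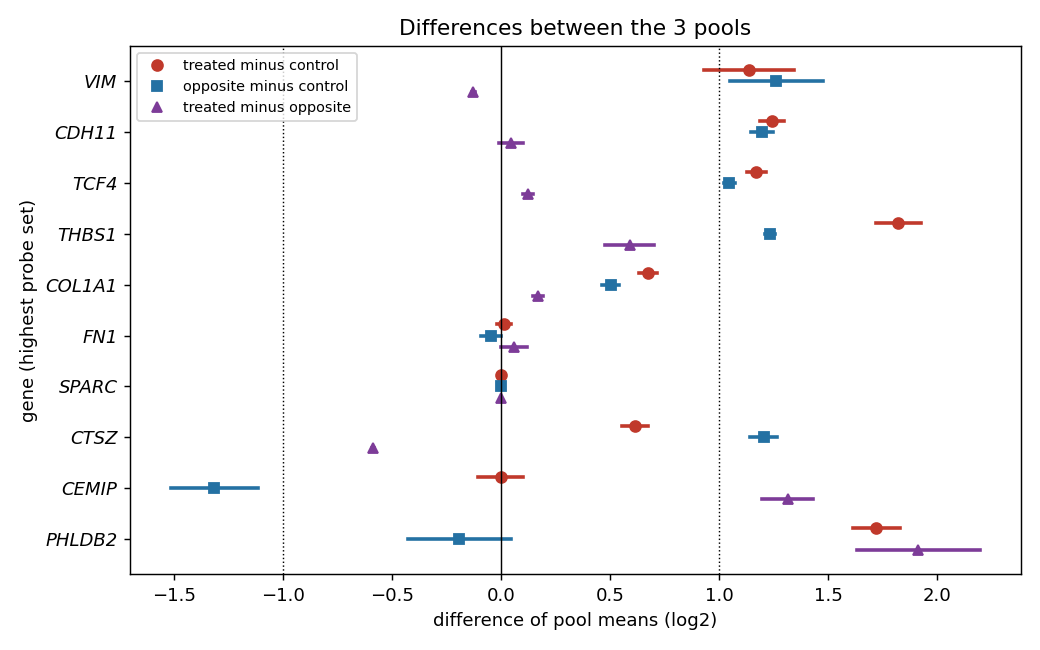
Differences of pool means (log2, horizontal axis) for the highest probe set of each gene in the 3 comparisons; points are the differences, lines span the 4 array-to-array differences and dotted lines mark the minimum difference of 1. VIM, CDH11 and TCF4 differ from control by 1.05 to 1.26 in both comparisons, CEMIP by -1.32 in the opposite pool alone and PHLDB2 by 1.72 in the treated pool alone.

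The promoters of CEMIP and CTSZ are shown because these genes stood apart on the unheated side of the treated animals, 1 in each direction. CEMIP lies at chr15:80779120-80779419 on the plus strand, with capitals for its GAANNTTC match, and CTSZ at chr20:59007205-59007504 on the minus strand, with capitals for a stretch that matches CAGNTG as written and CACCTG on the other strand.
CEMIP: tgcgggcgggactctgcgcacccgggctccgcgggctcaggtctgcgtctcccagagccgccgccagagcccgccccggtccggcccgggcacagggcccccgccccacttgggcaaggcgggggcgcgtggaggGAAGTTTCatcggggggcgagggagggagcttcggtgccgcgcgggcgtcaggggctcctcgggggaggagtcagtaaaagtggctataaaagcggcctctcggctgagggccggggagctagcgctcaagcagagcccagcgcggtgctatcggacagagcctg
CTSZ: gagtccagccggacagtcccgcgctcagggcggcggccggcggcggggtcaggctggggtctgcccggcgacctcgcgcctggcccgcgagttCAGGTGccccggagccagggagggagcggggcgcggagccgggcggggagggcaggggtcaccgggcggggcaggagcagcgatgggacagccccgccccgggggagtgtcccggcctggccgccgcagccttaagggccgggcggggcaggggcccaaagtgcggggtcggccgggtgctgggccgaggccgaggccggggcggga

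Between the heated and unheated tumours of the same animals, VIM, CDH11, TCF4, COL1A1 and FN1 differed by -0.13, 0.05, 0.12, 0.17 and 0.06. The median spike-in control, RNA added at known amounts, read 0.332 higher in the treated than in the opposite pool, taken as the median of 40 differences. When the arrays were set to the same spike-in median, which equalises the middle spike-in level of each array and not these differences, all differences of this comparison shifted by -0.19, and those of CDH11, TCF4, COL1A1 and FN1 took the other sign (-0.14, -0.07, -0.02 and -0.13). CEMIP and PHLDB2 remained called there, at 1.13 and 1.73. Over all tested probe sets, the share of calls that were higher in the treated pool went from 77.2% to 40.8% with that scaling, and in the opposite minus control comparison from 54.7% to 86.4%. A scaling added after seeing the data removed each array's median spike-in deviation instead and shifted this comparison by -0.32. With it CEMIP was at 0.998, just short of the minimum difference, PHLDB2 stayed called at 1.60, and VIM, CDH11, TCF4, COL1A1 and FN1 were at -0.45, -0.27, -0.19, -0.15 and -0.26. The share of calls higher in the first group was then 17.2% in treated minus opposite, 91.4% in opposite minus control and 54.1% (from 76.7%) in treated minus control.

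The genes nearest in pattern were taken as those with the smallest distance in the pair of differences from control (treated, opposite) among 7266 other genes detected in any pool, measured over the 3 pools. VIM lay nearest to CDH11 (0.13), TCF4 (0.22) and SGMS2 (0.23), and CDH11 to QKI (0.12), SGK1 (0.12) and VIM. TCF4 had SGMS2 at 0.06, SGK1 at 0.15 and CDH11 at 0.16. SGMS2 differed from control by 1.12 in the treated and 1.03 in the opposite pool. THBS1 lay nearest to TAGLN (0.25), MT1F (0.34) and CPEB4 (0.37). For CTSZ the nearest were VNN1 (0.13), TMEM106B (0.16) and IFNGR1 (0.25), and for CEMIP they were SND1-IT1 (0.21), KRCC1 (0.29) and PRR5L (0.31). PHLDB2 lay nearest to the heat shock genes HSPH1 (0.20) and DNAJB1 (0.30) and to LGR5 (0.42). At most 1 gene lay within 0.1 of any of these 7 genes. The members were chosen with these same differences known, so nothing is read from VIM, CDH11 and TCF4 lying near each other. Distances from or to TCF4, THBS1, PHLDB2, SGK1, CPEB4, LGR5 and SND1-IT1 use at least 1 pool mean below the detection level of 5.

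The other genes of these pathways were taken from 13 lists, which hold 164 measured genes besides the 10. In the treated minus control comparison 77 of them were detected, 4 were higher and 0 lower, beside 0.625% and 0.0972% of all tested genes. In the opposite minus control comparison 0 of 79 were higher and 0 lower, beside 0.237% and 0.167%, and in treated minus opposite 0 of 79 either way, beside 0.28% and 0.0559%. The median difference over these genes was 0.17, 0.09 and 0.08 in the 3 comparisons, against -0.02, -0.02 and 0.01 over all tested genes. The first spike-in scaling described above moves opposite minus control by 0.175 and treated minus opposite by -0.19, so whether a list median is larger in the treated or in the opposite pool depends on the scaling. With it, the treated and opposite medians became 0.26 and 0.31 for matrix glycoproteins, 0.30 and 0.35 for receptors and 0.18 and 0.33 for proteases, against the values given below.

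Of the collagens only COL4A2 and COL18A1, chains of basement membrane collagens, were detected among 14 besides COL1A1, and they differed from control by 0.23 and -0.20 in the treated pool and by 0.05 and -0.02 on the opposite side. Of 11 detected matrix glycoproteins and proteoglycans, CCN1 and CCN2, matricellular integrin ligands, were higher in the treated pool by 1.04 and 1.06 and differed by 0.49 and 0.11 on the opposite side. TGFBI and HSPG2, named here after their values were seen, differed by 0.98 and -0.21 in the treated pool and by 0.70 and -0.73 on the opposite side. On all array pairs 6 of the 11 were above and 5 below control in the treated pool, and 7 and 4 on the opposite side. Over all tested genes the shares were 34.7% above and 40.5% below in the treated pool, and 34.0% and 42.4% on the opposite side. Of 9 detected collagen processing genes, SERPINH1, the collagen chaperone HSP47, was higher in the treated pool by 1.28 and differed by 0.32 on the opposite side, and the prolyl hydroxylase P4HA2 differed by 0.46 and 0.12. The list medians in the treated and opposite pools were 0.27 and 0.14 for glycoproteins and 0.02 and 0.05 for collagen processing, where the 0.02 turned to -0.0039 with quantile normalization.

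Of the receptors of these matrix proteins none passed the rule. Of 12 detected receptors, 10 were above control on all array pairs in the treated pool and 9 on the opposite side, with medians of 0.32 and 0.17. Of all tested genes 34.7% and 34.0% were above control on all array pairs, and 40.5% and 42.4% below. ITGAV, the integrin alpha V chain that binds fibronectin, thrombospondin and vitronectin, differed by 0.68 and 0.81, and ITGA2, of the collagen receptor, by 0.79 and 0.55. Of 10 detected matrix proteases and inhibitors, 5 were above and 5 below control in the treated pool (medians 0.19 and 0.16), with the membrane metalloprotease MMP14 at 0.57 and 0.44 and ADAM9 at 0.59 and 0.32.

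The relatives of CTSZ and CEMIP were also below the rule. The other detected cathepsins and their inhibitors, 7 in the treated and 9 in the opposite comparison, had medians of -0.02 and 0.07. CTSD, the aspartic cathepsin D, which reached 5 in the opposite pool alone, differed by -0.29 and 0.10, and the inhibitor CST3 by -0.24 and -0.41. In the hyaluronan list CEMIP2, the transmembrane relative of CEMIP, differed by 0.16 and 0.03, the receptor HMMR by 0.39 and 0.24, and the medians were 0.16 and 0.03 over 3 genes.

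None of 9 transcription factors known to drive epithelial to mesenchymal transition, among them SNAI1, SNAI2, ZEB1, ZEB2, TWIST1 and PRRX1, was detected in any pool. Among the partners of TCF4, the inhibitors ID1 and ID2, which keep E proteins from DNA, differed from control by 0.92 and 0.45 in the treated pool and by 0.73 and 0.35 on the opposite side, and the list medians were 0.42 and 0.18 over 4 genes. E-cadherin (CDH1) differed by 0.19 and 0.31 and P-cadherin (CDH3) by 0.09 and -0.05, for medians of 0.14 and 0.13. The intermediate filament list, here keratins and lamins, had medians of 0.16 and 0.09 over 6 genes, with KRT20 at 0.27 and 0.28 and LMNB1 at 0.29 and 0.09. Of the cortical microtubule list around PHLDB2, CLASP1 differed by 0.08 and -0.06 and PPFIA1 by 0.15 and 0.07, with medians of 0.08 and 0.07 over 3 genes. In the TGF-beta list SKIL, a feedback repressor of the pathway, was higher in the treated pool by 1.05 and differed by 0.72 on the opposite side, the ubiquitin ligase SMURF2 differed by 0.65 and 0.31, and the medians were 0.27 and 0.16 over 9 genes.

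**Figure D4:**
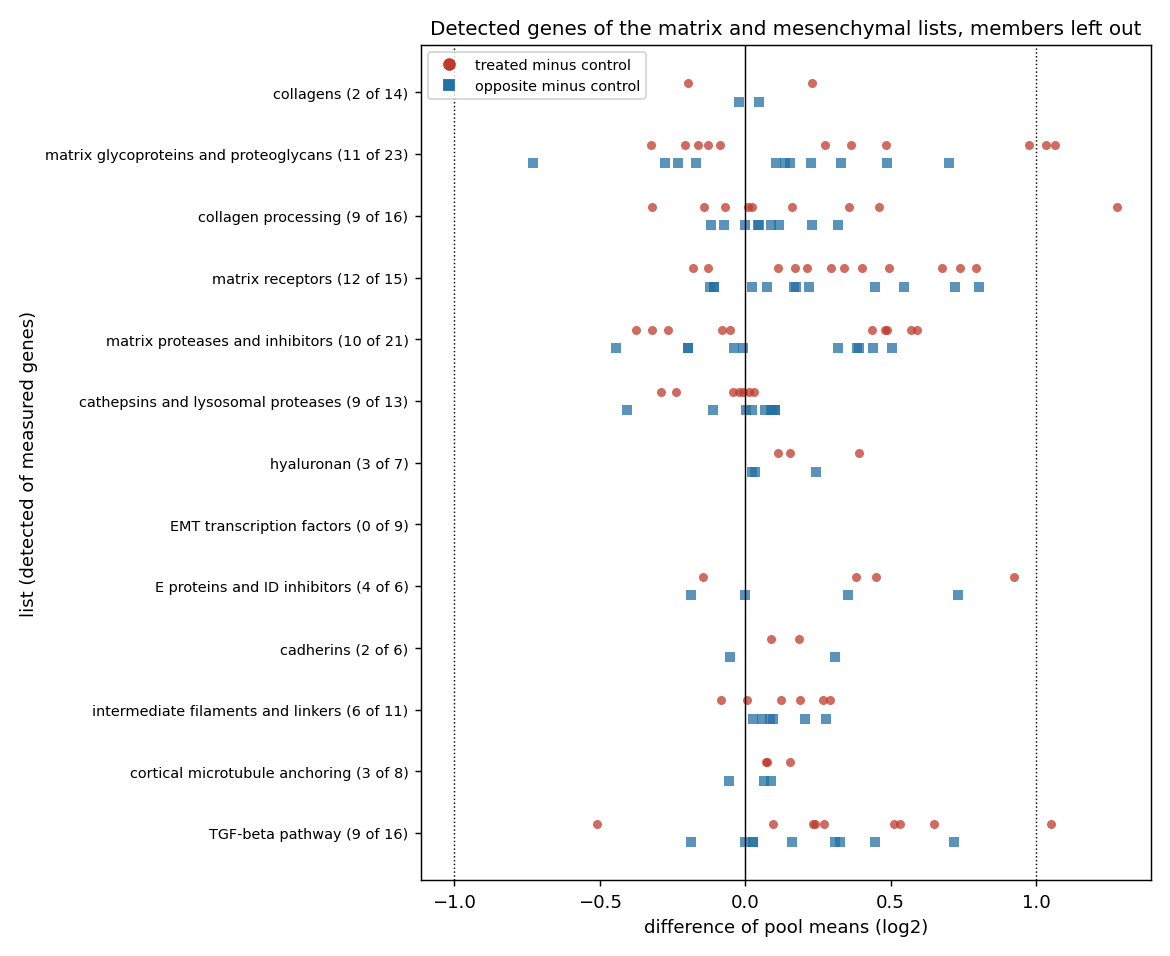
Differences of pool means (log2, horizontal axis) of the detected genes in 13 lists of matrix and mesenchymal genes, without the 10 genes themselves; circles are treated minus control, squares are opposite minus control and dotted lines mark the minimum difference of 1. In the treated pool 4 circles pass 1 (CCN1, CCN2, SERPINH1 and SKIL), no square does, and the list of epithelial to mesenchymal transition factors has no detected gene.

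Markers of host cell types are given beside the 10 genes because mouse stroma shares the section. Of 12 fibroblast markers 2 were detected, COL1A1 and TAGLN, a smooth muscle and myofibroblast actin-binding protein that was higher by 1.66 in the treated and 1.04 in the opposite pool. The defining markers PDGFRA, PDGFRB, DCN, LUM, FAP, THY1 and POSTN were below 3 in every pool. COL3A1, named here after its values were seen, lay below detection at 3.94 ± 0.37 in the control, 4.98 ± 0.17 in the treated and 4.88 ± 0.032 in the opposite pool. The summed level of the 12 fibroblast markers was 8.16 to 8.22 (log2) on the control arrays, 9.23 to 9.26 on the treated arrays and 8.84 to 8.88 on the opposite arrays. This sum is carried by TAGLN and by COL1A1, which is 1 of the 10 genes, while COL1A2 (below detection) differed by 0.02 and 0.03 and ACTA2 (also below detection) by 0.18 and 0.02. Without COL1A1 and TAGLN, a sum made after the values were seen, the level of the other 10 markers was 6.28 to 6.38 on the control, 6.63 to 6.68 on the treated and 6.57 to 6.58 on the opposite arrays. The rise of this sum came mostly from COL3A1, below detection, which differed by 1.04 and 0.95. Of these 10, ACTA2 had the next largest difference in the treated pool.

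Of 11 skeletal muscle markers 3 were detected, and the summed level was 7.07 on each control array, 7.88 to 7.96 on the treated and 7.43 on each opposite array. ACTA1 was higher than control by 2.17 in the treated pool and lay 1.00 above it, below detection, on the opposite side; MYL11 was higher by 1.60 and differed by 0.84, whereas CKM, MB, MYH1, MYH2, MYH4 and MYL1 were at or below 3.07 in every pool and TNNT3 differed by 0.06 and 0. The remaining muscle markers TNNC2 and TTN, both below detection, differed by 0.55 and 0.46 in the treated and by 0.36 and 0.18 in the opposite pool. Of 10 endothelial markers FLT1 alone was detected (-0.04 and -0.19), CDH5 and EMCN stood at the lowest value, and the summed level was 6.43 to 6.47 on the control, 6.40 on the treated and 6.35 to 6.36 on the opposite arrays. None of 7 pericyte and smooth muscle markers was detected (summed level 6.11 to 6.23 over all arrays).

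Of 8 leukocyte markers LYZ was detected (0.23 and 0.15), with CSF1R, CD14, CD163 and CD3E at the lowest value and a summed level of 11.59 to 11.64, 11.83 to 11.85 and 11.74 to 11.78 on control, treated and opposite arrays. This sum followed LYZ, as the next highest marker, AIF1, reached a pool mean of 3.03 at most, so it describes LYZ and not the list. Of 9 adipocyte and epidermis markers KRT10 was detected (-0.08 and 0.15; summed level 8.67 to 8.89 over all arrays). KRT14, a keratin of basal epidermis named here after its values were seen, lay below detection at 2.41 ± 0.045 in the control, 4.07 ± 0.24 in the treated and 3.04 ± 0.0021 in the opposite pool. Of 5 measured red blood cell markers HBE1, embryonic haemoglobin epsilon, was detected and higher, by 5.18 and 1.03, and the summed levels of 6.58 to 6.74, 11.23 to 11.26 and 7.38 to 7.43 followed it. Of 16 colon epithelium markers 13 were detected, among them EPCAM and KRT8, and 3 were not, with CDX1 at the lowest value. Their median differences were -0.08 and 0.04, and their summed level was 15.04 on the control, 15.14 to 15.15 on the treated and 15.16 on the opposite arrays.

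**Figure D5:**
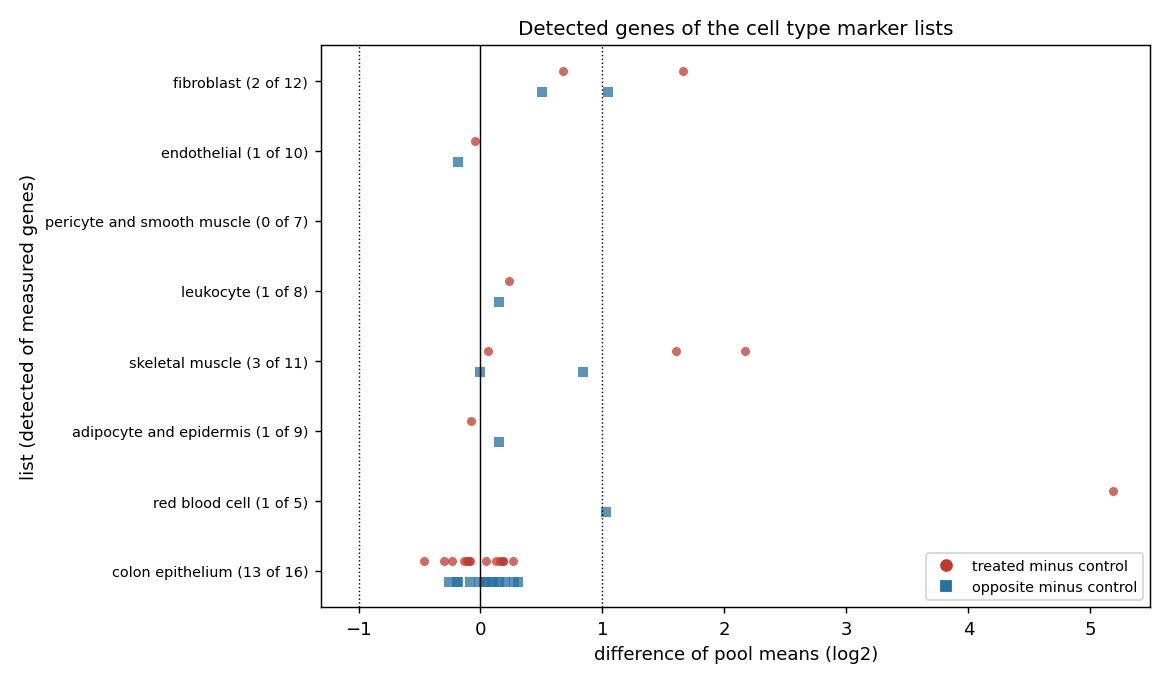
Differences of pool means (log2, horizontal axis) of the detected genes in 8 lists of cell type markers; circles are treated minus control, squares are opposite minus control, dotted lines mark the minimum difference of 1 and brackets give the detected of the measured genes. Fibroblast and muscle markers with signal lie to the right of 0 or near it, most markers of host cells are undetected, and the 13 colon epithelium genes lie between -0.46 and 0.31.

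The array carries control probe sets for both ends of ACTB, which serve as a gauge of intact RNA. Those of the 5′ end differed from control by 1.12 in the treated and 1.28 in the opposite pool, against 0.23 and 0.15 at the 3′ end. For GAPDH the 5′ differences were -0.46 and -0.01 and the 3′ differences -0.03 and 0.0005. VIM, CDH11, THBS1, TCF4, COL1A1 and CTSZ were above control in both pools of the treated animals, as was the ACTB 5′ probe set. So were the summed levels of the fibroblast, pericyte and smooth muscle, leukocyte, skeletal muscle, red blood cell and colon epithelium lists. The leukocyte and red blood cell sums followed LYZ and HBE1, their only detected genes, and no pericyte and smooth muscle marker was detected. Of the 13 detected colon epithelium genes, 5 were above and 6 below control on all array pairs in the treated pool, beside 34.7% and 40.5% of all tested genes. On the opposite side 8 were above and 4 below, beside 34.0% and 42.4%. The endothelial sum was below control in both pools, and the adipocyte and epidermis sum was above it on the opposite side alone. FLT1 and KRT10 were the only detected genes of these lists, and their other markers add levels below detection. The part of RNA quality, of host cells and of probes that bind mouse transcripts in these differences was not tested.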

How the data were processed

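Total RNA of 3 pools was measured on 6 one-colour Affymetrix HG-U133 Plus 2.0 arrays, 2 technical arrays a pool. The values deposited by the authors are log2 values, judged from their range, and were made with GCRMA per the submitters' processing notes; GCRMA corrects background, normalizes arrays by quantiles and summarises probes per probe set. Of 54675 probe sets, 62 are array controls. Genes were named through the platform annotation and updated by Entrez identifier: 41097 probe sets named 1 gene, 1801 several and 11777 none, and 41043 of those with 1 gene matched. Each gene takes the values of its brightest probe set over all arrays. Apart from the promoter windows, given on the GRCh38.p14 build, genome coordinates of genes are left out because the deposited files name no build.

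With 1 pool a group no test was made, and the number of arrays limits the precision. The members, lists and rules were chosen with earlier results of these data known. Named genes were the 10 members, genes of each list past the rule, its 2 largest differences, and the 3 nearest genes to each called member. Alternatives, of which those said to be added came after seeing the data, were other detection levels, minimum differences, scalings, averaging and probe sets, and leaving out each array. Python 3.11.15, numpy 2.4.6, pandas 2.3.3 and matplotlib 3.10.9 were used.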

Additional observations from a re-analysis of the deposited data

How the results depend on the processing

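The counts of called probe sets were 5, 6 and 2 for treated minus control, opposite minus control and treated minus opposite. With a minimum difference of 1.5 (log2) they were 2, 0 and 1, and without the probe sets ending in _s_at or _x_at they were 1, 1 and 0, the 1 being TCF4. With the 1.5-fold minimum the last count was 4. A scaling by the median spike-in deviation, added after seeing the data, left 1 in the last comparison, where CEMIP fell just under the minimum. With a detection level of 6 the counts were 4, 4 and 2, and with values below 5 set to 5, also added, again 4, 4 and 2: TCF4 was lost in both comparisons with control and THBS1 on the opposite side. Leaving out 1 array at a time gave 4 to 5, 6 and 2, and the lowest count came without the first control array, where VIM was lost. The remaining alternatives kept each count within 1.5 times. CDH11 reversed, to -0.022 against control in both pools, on its best probe set that carries neither ending, which is undetected. The median over all probe sets of a gene moved 21 of 30 differences by more than their SD, as the undetected probe sets enter it; the same spike-in median moved 17 of 30 and the spike-in deviation 24 of 30, without reversing a called difference. No paired analysis was possible because the technical array numbers pair no samples across pools and no test was made. Tumours within a pool cannot be told apart, and signal near the lowest value gives no order.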
